A study of Glycine max with 3 samples.

Results

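The miR1510 family is a group of microRNAs of legumes, studied here in leaves of Glycine max, in the cultivar Taiwan 75 of vegetable soybean, which is picked for its immature seed. Its members were found by name: every mature sequence listed as miR1510, of either arm, and every degradome pair listed for it. They came to 3 distinct sequences of the 381 in the small RNA tables, in 4 entries from 2 hairpins, and to 24 of the 898 pairs of a small RNA and a transcript in the degradome table. Small RNA was read from 1 library of control leaves, from plants grown at 25 °C in the day and 17 °C at night, and from 1 library of chilled leaves, from plants moved to 4 °C for 24 h. Plants were at the stage of 1 true leaf, and for each library the leaves of 3 replicates were combined. The degradome came from 1 library of chilled and control leaves mixed; its tissue is labelled leaf, but its stage is labelled 10 days after pollination, unlike that of the other libraries. With 1 library per condition there is no replicate check and no test between conditions, and every ratio compares those 2 libraries. The tables hold microRNAs and their cut transcripts, so leaf markers could not be looked up.

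A plant microRNA is cut as a duplex from a hairpin precursor, and 1 arm of the duplex, usually the guide, is loaded into an Argonaute protein and directs the cutting of messenger RNAs that pair with it. miR1510 is known in soybean and its relatives for targeting messages of TIR-NBS-LRR proteins, intracellular receptors that recognise pathogen effectors and carry a Toll/interleukin-1 receptor domain, a nucleotide-binding site and leucine-rich repeats. The guide of this family comes from the 3′ arm. A guide of 22 nt is known to start the making of phased secondary small RNAs from the cut message. In the legume tribe Phaseoleae, to which soybean belongs, the guide of miR1510 is known to gain a uridine at its 3′ end after it is cut from the hairpin.

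The 3 mature sequences are shown because they carry the whole family signal, with the seed (bases 2 to 8) in capitals and T standing for the uridine of the RNA.
miR1510b-5p: aGGGATAGgtaaaacaactac
miR1510a-5p: aGGGATAGgtaaaacaacgac
miR1510 3p: tGTTGTTTtacctattccacct
The 5′ arm sequences share a seed and differ at 1 of 21 bases, T19G from miR1510b-5p to miR1510a-5p, counted from 1 at the 5′ end. Neither seed of the family was found in a sequence of another family. The 22-nt 3′ arm sequence is listed under 2 names, miR1510a-3p and miR1510b-3p, and the letters are the same, so its reads cannot be assigned to either hairpin.

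The hairpins are shown as deposited, with both arms in capitals, since the mature sequences do not all match them.
miR1510b hairpin: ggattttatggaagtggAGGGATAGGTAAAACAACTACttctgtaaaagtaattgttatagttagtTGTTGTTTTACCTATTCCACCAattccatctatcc
miR1510a hairpin: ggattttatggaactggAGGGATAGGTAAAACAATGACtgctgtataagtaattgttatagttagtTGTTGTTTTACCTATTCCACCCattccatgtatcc
The miR1510b hairpin lies at chr2:6675719-6675819 and the miR1510a hairpin at chr16:31887377-31887477, both on the plus strand, in a genome build that the sources used here do not name. They have the same bases at 94 of 101 positions (93.1% identity). RefSeq names them MIR1510B and MIR1510A. In its assembly Glycine_max_v4.0, MIR1510B lies between the protein-coding genes PM31 and LOC100797941, and MIR1510A lies within the span of the protein-coding gene LOC121173697; whether that is an exon or an intron was not looked up. The folding energy index that the authors give, which sets folding energy against length and GC content, is 1.4 for both hairpins, against a median of 1.0 over 348 hairpins, and 21 hairpins had a higher one. Their GC content of 33.7% and 35.6% was below the median of 41.4%.

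The last base of the 3′ arm sequence is in neither hairpin. Its first 21 bases occur exactly in both, and the final base differs, as A22T from the miR1510b hairpin and as C22T from the miR1510a hairpin. In the deposited fold of both hairpins, base 2 of the 5′ arm pairs with base 18 of the 3′ arm, and the 3′ arm runs 3 bases past the start of the 5′ arm, with the terminal T as the outermost. The 5′ arm runs 2 bases past the start of the 3′ arm. Between the arms there are 17 base pairs in miR1510b and 16 in miR1510a. Of the 381 distinct sequences, 76 were not found in their own hairpin, and 9 of these differed from it by the final base alone, 8 of them ending in T. The miR1510 3p sequence had the most reads of those 8, followed by miR5679 with 15 control and 26 chilled reads. miR1510b-5p matches its hairpin, while miR1510a-5p differs from the miR1510a hairpin by T18C and is also 1 base away from the miR1510b hairpin. The sources used here do not say how the authors assigned reads to a sequence that is in neither hairpin.

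The family was the second most abundant of 136 in these leaves, after miR3522, and nearly all of its reads were from the 5′ arm. Over all listed sequences, with 1 entry per sequence, the control library held 3856902 reads and the chilled library 5347700. Reads of small RNA that is not listed are not counted in these totals. The deposited reads are raw and hold fractions for all 4 miR1510 entries. miR1510b-5p had 113528 control and 74331.5 chilled reads and ranked 2 of 381 by mean abundance. miR1510a-5p had 9702 control and 6059.5 chilled reads and ranked 11. The 3′ arm sequence had 76.3 control and 64.5 chilled reads in its larger entry and ranked 107. All 3 sequences had fewer reads in the chilled library. Its larger total was mostly miR3522, without which the totals were 459783 control and 472712 chilled reads.

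**Figure D1:**
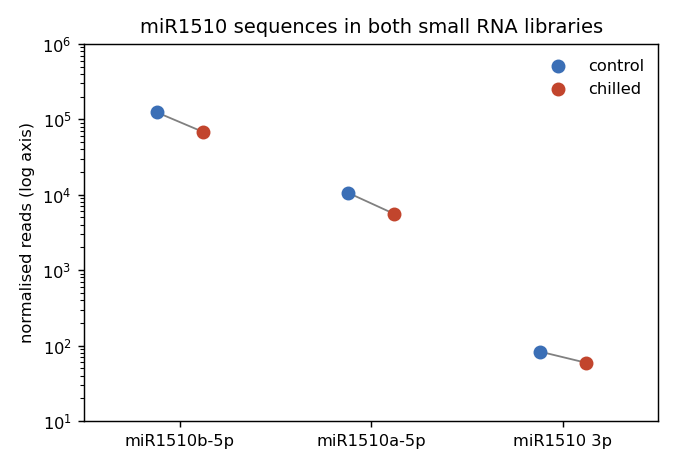
Normalised reads (log axis) of the 3 miR1510 sequences in the control and chilled libraries, 1 point per library. Each chilled point lies below its control point, and the 5′ arm sequences stand far above the 3′ arm sequence.

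After scaling of the libraries (TMM, which centres most sequences on no change), miR1510b-5p stood at 123647 normalised reads in control and 68249 in chilled leaves. On the log2 scale the chilled level was -0.86 from the control (95% interval -0.87 to -0.84), or 1.81-fold lower. For miR1510a-5p, 10567 control and 5564 chilled normalised reads gave -0.93 (-0.97 to -0.88), or 1.90-fold lower. For the 3′ arm sequence, 83.1 and 59.2 normalised reads of its larger entry gave -0.48 (-0.997 to 0.005), an interval that holds 0. So no difference could be detected with the few reads of that entry. With its 2 entries summed, 149 control and 129 chilled reads gave -0.46, for which no interval was computed. Whether the 2 entries count the same reads is not stated. These intervals are exact binomial ones and cover counting error only; reads were not counted by molecular identifiers. Because leaves were pooled whole, fewer cells that make miR1510 and less miR1510 per cell cannot be told apart.

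None of the 3 sequences reached a 2-fold difference, that is 0 of 3, where 30.5% of the 213 sequences with at least 10 normalised reads did, 14.1% higher and 16.4% lower. The median log2 ratio of those 213 was 0.06. Lower ratios than that of miR1510b-5p were found for 43 of them (20.2%), and lower than that of the 3′ arm sequence for 70 (32.9%). Among the 20 most abundant sequences, whose median was 0.12, those below miR1510b-5p were miR156a, miR4996 and miR1510a-5p. The count of 0 turned with the scaling. With both libraries set to the same table total, both 5′ arm sequences passed 2-fold, at -1.08 and -1.15, where 33.2% of 214 sequences did. With the libraries centred on their median ratio, miR1510a-5p alone passed it, at -1.001, where 32.1% of 215 did. The count stayed at 0 with DESeq2 size factors, where 30.3% of all sequences passed, with totals taken without miR3522 (31.1%), with reads not scaled (33.0%), with all entries of a sequence summed (32.9%), with no minimum of reads (33.1%) and with a minimum of 100 (21.2%).

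**Figure D2:**
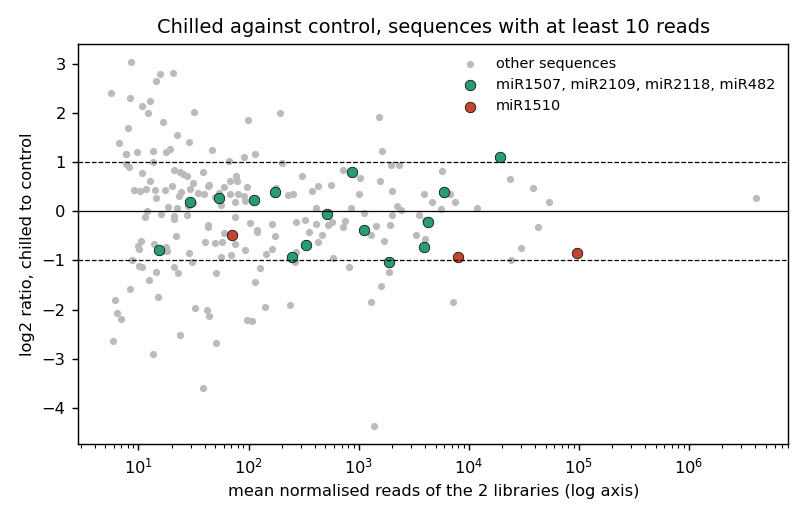
Log2 ratio of chilled to control against mean normalised reads (log axis) for the 213 sequences with at least 10 normalised reads, with dashed lines at 2-fold. The 3 miR1510 points lie between 0 and the lower dashed line, and miR1510b-5p is the abundant one at -0.86.

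Ratios within a library do not depend on that scaling. The 5′ arm sequences kept nearly the same proportion to each other, with 11.7 reads of miR1510b-5p for each of miR1510a-5p in control and 12.3 in chilled leaves. On the log2 scale this proportion was 0.07 higher in the chilled library (95% interval 0.02 to 0.12). As the sequences differ by 1 base, reads with a base misread could pass between them, which was not tested. miR1510b-5p made up 92.1% of the 5′ arm reads in control (95% Wilson interval 92.0 to 92.3) and 92.5% in chilled leaves (92.3 to 92.6). As a share of all reads in the table, the family came to 3.20% in control leaves (3.18 to 3.21) and 1.504% in chilled leaves (1.49 to 1.51). Without miR3522, which held most of the listed reads of both libraries, it came to 26.8% in control leaves (26.7 to 26.9) and 17.0% in chilled leaves (16.9 to 17.1).

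The arm that dominated is not the one with listed targets. The 5′ arm held 99.94% of the family's reads in control (99.92 to 99.95) and 99.92% in chilled leaves (99.90 to 99.94). Such a share was common. Of 114 hairpins with both arms listed and at least 100 reads in each library, 65 had most control reads from the 5′ arm. In 42 of them that arm held over 99%. By this share the miR1510b hairpin ranked 10 and the miR1510a hairpin 38. Hairpins with the same mature sequence repeat its reads, so these counts and ranks are of hairpins and not of distinct sequences. In control leaves there were 1487 reads of miR1510b-5p for each read of the 3′ arm sequence in its larger entry, and in chilled leaves 1152. The difference of that ratio, -0.36 on the log2 scale (-0.86 to 0.14), was within counting error of the rarer arm in that entry. The difference with both entries of the 3′ arm sequence summed was not computed. The tables list 1 sequence for each arm of these hairpins, and other length forms, such as a 3′ arm without its final T, are not analysed here.

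**Figure D3:**
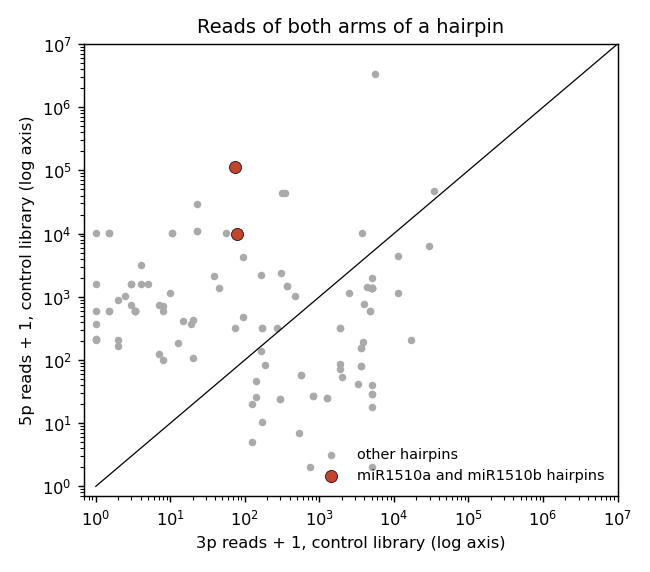
Reads of the 5′ arm against reads of the 3′ arm in the control library (both log axes, 1 added) for the 114 hairpins with at least 100 reads in each library; the line marks equal reads, and hairpins with the same mature sequence show the same reads more than once. Both miR1510 hairpins lie above the line, at 113528 and 9702 reads of the 5′ arm against 73 and 76.3 of the 3′ arm sequence that they share.

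Other families known to target messages of NB-LRR receptors were set beside miR1510. Their guide sequences are shown for comparison, again with the seed in capitals.
miR1507a: tCTCATTCcatacatcgtctga
miR2109: tGCGAGTGtcttcgcctctga
miR2118a-3p: tTGCCGATtccacccattccta
miR482a-3p: tTCCCAATtccgcccattccta
None of these seeds is that of miR1510. The family sum of miR1510 was 123306 reads in control and 80456 in chilled leaves, which gave a log2 ratio of -0.86 (95% interval -0.88 to -0.85), and stayed below 0 under each of the 6 scalings run, from -1.09 to -0.62. The sum of miR1507 stood on the other side, at 0.57 (0.54 to 0.59), and so did that of miR2118, at 0.44 (0.39 to 0.49). The miR1507 sum rests on miR1507a, a 3′ arm guide, at 1.10 (1.07 to 1.13). The other 4 sequences of that family lay on the same side as miR1510, from miR1507c-5p at -1.03 (-1.13 to -0.94) to MIR1507b-p5 at -0.37 (-0.49 to -0.25). Among these 4 is another 3′ arm sequence, miR1507c-3p, at -0.93 (-1.20 to -0.67), so the 3′ arm sequences of miR1507 went both ways. The sum of miR1510 is thus one of a 5′ arm, and that of miR1507 mostly one of the 3′ arm sequence miR1507a. The sum of miR2109 was lower, at -0.70 (-0.93 to -0.48), on 394 control and 287 chilled reads. The sum of miR482 stood at -0.17 and turned above 0 with reads not scaled and with totals taken without miR3522. It is mostly a 5′ arm sum, as pvu-miR482-5p held 4242.5 of its 5024 control reads, at -0.23 (-0.29 to -0.16). Its 3′ arm sequences stood above 0, miR482a-3p at 0.24 (-0.16 to 0.63) and miR482b-3p at 0.39 (0.08 to 0.71).

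In reads, miR1510 outweighed these families together. It made up 80.4% of the reads of the 5 families in control leaves (80.2 to 80.5) and 62.5% in chilled leaves (62.2 to 62.7), a share that needs no scaling. The share of miR1507 went from 12.7% (12.5 to 12.8) to 26.5% (26.3 to 26.8), and that of miR2118 from 3.45% (3.36 to 3.55) to 6.64% (6.50 to 6.77). There were 10.2 reads of miR1510b-5p for each of miR1507a in control and 2.62 in chilled leaves, a difference of -1.96 on the log2 scale (-1.99 to -1.92). The family shares pool both arms, and those of miR1510 rest almost wholly on the 5′ arm. For the guides themselves, with 1 entry kept per sequence, the order was another: the miR1510 3p sequence had fewer reads in both libraries than miR1507a, miR2118a-3p, miR2109 and miR482a-3p. The last had 93.5 control and 131 chilled reads, against 76.3 and 64.5 for miR1510 3p. With its 2 entries summed, miR1510 3p had 149 and 129 reads. The order against miR482a-3p was not tested.

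**Figure D4:**
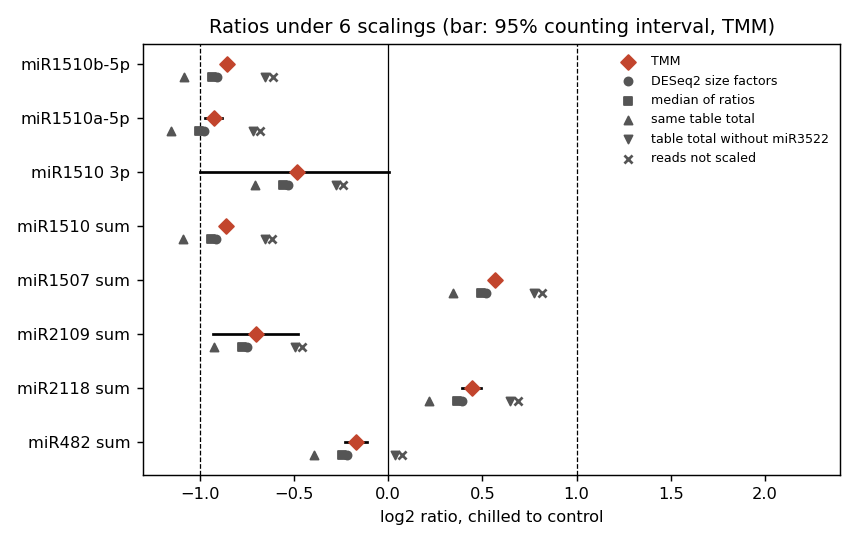
Log2 ratio of chilled to control for the 3 miR1510 sequences and for the sums of 5 families, under TMM (diamonds, with the 95% counting interval as a bar) and under 5 other scalings (symbols just below). The miR1510 points lie below 0 under each scaling, from -1.15 for miR1510a-5p to -0.24 for the 3′ arm sequence.

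The degradome library was used to list messages cut at a site that pairs with a miRNA; it reads the 5′ ends of cut messages. All 24 miR1510 pairs in the authors' deposited table belong to the 3′ arm sequence, and 0 belong to the 5′ arm sequences. The same 12 transcripts are listed under each of its 2 names, so the table holds 12 different pairs, from 4 gene loci. Of the 20 most abundant sequences, 9 had a pair in the table, and of the 213 sequences with at least 10 normalised reads, 58 (27.2%). All 4 loci have a transcript annotated as TIR-NBS-LRR class disease resistance protein, which holds for 11 of the 12 transcripts. The other, Glyma.19G054700.3, is annotated as a transmembrane receptor with ATP binding. None of the 12 transcripts was listed for another miRNA family. As the library mixed chilled and control leaves, it carries no difference between them.

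Glyma.15G232400, on chromosome 15, was the locus with the strongest listed cut. The authors' deposited table places it in category 0, in which target callers usually put a site that is the highest of its transcript, and which holds 28.8% of all pairs. Its abundance is 204 TPB, the authors' normalised abundance of reads at the cut site, which the files do not spell out. That is 25 times the lowest abundance in the table, 8.14 TPB. The cut is at position 682 of transcript Glyma.15G232400.1 and 627 of Glyma.15G232400.2, with an alignment score of 2, where lower means fewer mispaired bases and scores in the table run from 0 to 4. The authors' p-value was 0.0341 in the deposited table, and 76 of the 898 pairs had a lower one. An authors' p-value under 0.05 was listed for 15.9% of all pairs. Among the 74 loci whose first pair was in category 0 (26.9% of 275 loci), this one ranked 50 by abundance, below their median of 706 TPB.

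The other 3 loci, Glyma.19G054700, Glyma.19G054800 and Glyma.19G054900, follow each other in number on chromosome 19. In the authors' deposited table each stood in category 4, which holds 29.5% of all pairs, at 8.14 TPB, the lowest abundance listed, where 10.5% of all pairs stood. Over all 265 pairs of category 4, the lowest authors' p-value was 0.130 and the median 0.884. The sites below are thus listed ones, and cutting at them is not shown. For Glyma.19G054700.2, listed with a cut at position 699, the deposited table gives an alignment score of 3 and an authors' p-value of 0.585. Glyma.19G054700.3 and Glyma.19G054700.4 were listed with a cut at position 681 of the transcript. Glyma.19G054800.1 was listed with a cut at position 882 and Glyma.19G054900.1 at position 824. Both had an alignment score of 2.5 and an authors' p-value of 0.837 in the deposited table. Of the 6 transcripts of Glyma.19G054900, 4 were listed with a cut at 824 and the other two at 819. The loci are like each other in name and annotation, and the same degradome read may be counted for more than 1 of them, which the table cannot show.

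**Figure D5:**
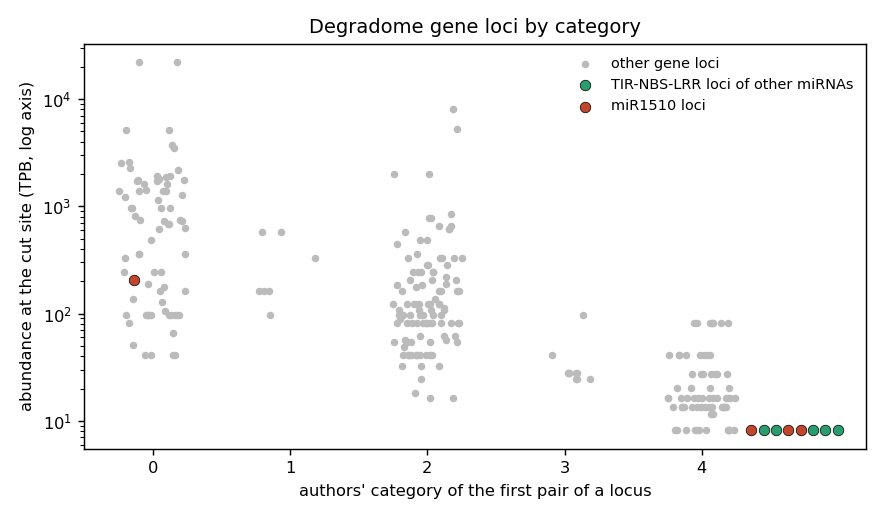
Abundance at the cut site (TPB, log axis) by the authors' category, 1 point for the first pair of each of 275 gene loci; the TIR-NBS-LRR loci of category 4 are drawn to the right of that category. One miR1510 locus lies in category 0 at 204 TPB, and the other TIR-NBS-LRR loci all lie at 8.14 TPB.

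The transcripts differ in the GO terms that the deposited table lists for them, which are labels and not domain calls. ADP binding, the term of the nucleotide-binding site, is given for 12 of 12 transcripts. Protein binding is given for 9, all but those of Glyma.19G054700. Signal transduction, a term given to TIR domains, is listed for 7, among them both transcripts of Glyma.15G232400. Within Glyma.19G054900 the term is listed for the 4 transcripts with a listed cut at 824 and for neither of those listed at 819. Both of the latter are still annotated as TIR-NBS-LRR class, so a missing term does not show a missing domain. Transcripts of 1 locus share their degradome reads and are not separate cuts.

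Over the whole table, 9 loci were annotated as TIR-NBS-LRR class, 4 for miR1510 and 5 for miR2109 and miR5668. Of these 9, Glyma.15G232400 was the one in category 0, and the other 8 stood at 8.14 TPB in the authors' deposited table, among 20 loci whose first pair was at that abundance. miR2109 had 3 such loci, with an authors' p-value of 0.991 in the deposited table, and miR5668 had 2, with 0.833. miR1507 had 4 loci, 3 of them annotated as NB-ARC disease resistance proteins, which carry the nucleotide-binding domain. Those 3 stood in category 2 of the deposited table, the highest of them Glyma.03G137200.1 at 326 TPB for miR1507a. The remaining miR1507 locus, Glyma.14G014000.2, stood in category 0 at 81.4 TPB in the deposited table and is annotated as a pyridoxal-phosphate-dependent enzyme. miR2118 and miR482 had 1 pair each, listed for the 5′ arm sequences miR2118a-5p and miR482b-5p and with other annotations; 0 pairs were listed for their 3′ arm guides.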

How the data were processed

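Small RNA libraries were made with a TruSeq small RNA kit and read single-end on an Illumina sequencer, per the labels' protocols. The sources used here name no aligner, miRNA caller, target caller or genome build. The deposited values are raw reads per entry, treated as estimated counts because 339 of 587 entries hold fractions. The GC percent, folding energy and index of each hairpin, and the abundance signal (TPB), alignment score, category and p-value of each degradome pair, were used as the authors deposited them. 6 lines of the small RNA table were empty in the copy used and are not analysed here.

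For each distinct sequence the entry with most reads was kept, and values of near-identical members, which can share reads, are uncertain. Reads were rounded before scaling (edgeR 4.0.16, TMM, R 4.3.3) and intervals (scipy 1.17.1), and DESeq2 1.42.0 size factors were an alternative. TMM placed the chilled library's scale 0.25 (log2) over that of the control. Ratios use a pseudocount of 1. The steps were tested on simulated data. A sequence was called at a log2 ratio of at least 1 either way with at least 10 normalised reads in a library. Named were every miR1510 sequence and, for each degradome locus, the pair of lowest category, then lowest p-value, with loci of category 0 or 1 or a p-value under 0.05 in full; the chromosome 19 loci, the families miR5668 and other sequences were named after their values were seen. The members and lists were chosen with earlier results of these data known. The authors' p-values were not adjusted here.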

Additional observations from a re-analysis of the deposited data

How the results depend on the processing

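Of the 45 values for miR1510 recomputed under an alternative, 29 were log2 ratios of its sequences and its sum, and all 29 lay below 0. These 29 are not separate checks, as the sum is mostly miR1510b-5p. The remaining values are counts and shares, which have no sign to change. By the limits set for each value, 24 of the 45 moved from the main result and 21 stayed. The sum of miR482, set beside them, did change sign between scalings. The family sum of miR1510, -0.86, was -0.91 with DESeq2 size factors, -0.94 with the median of ratios, -1.09 with the same table total, -0.66 with a table total without miR3522, -0.62 with reads not scaled and -0.92 without its most abundant sequence; each scaling moves every ratio by 1 constant. The number of miR1510 sequences past 2-fold, 0, was 1 with the median of ratios and 2 with the same table total, and 0 under the 6 other alternatives. With the reads of all entries of a sequence summed, the 5′ arm share was 99.88% of control and 99.84% of chilled reads, as the 3′ arm sequence has 2 entries. The 4 target loci became 1 with category 0 and 1 only and 1 with an authors' p-value under 0.05 only; counted as transcripts they were 11 and as pairs 22. No paired analysis was possible because each condition had 1 library. The 3′ arm sequence is where depth limits the comparison. It had under 100 reads in each library in its larger entry, and 149 control and 129 chilled reads with its 2 entries summed.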

Other observations

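miR1510 also weighed on the make-up of the listed miRNA reads by length and first base. The shares below are of reads of the listed sequences, not of all small RNA in the libraries. Without miR3522, sequences of 21 nt took 80.7% of control reads (95% Wilson interval 80.6 to 80.8) and 72.7% of chilled reads (72.6 to 72.8), and miR1510b-5p by itself was 30.6% (30.4 to 30.7) and 21.6% (21.5 to 21.8) of those 21-nt reads. With miR1510 left out as well, the 21-nt share was 73.6% (73.5 to 73.8) of control and 67.1% (67.0 to 67.3) of chilled reads. Both 5′ arm sequences start with A, and sequences that start with A took 5.22% of all control reads (5.196 to 5.24) and 2.79% of chilled reads (2.78 to 2.81). The 5′ arm of miR1510 made up 61.2% (61.0 to 61.4) and 53.8% (53.5 to 54.1) of the reads of sequences that start with A. With the miR1510 family left out of the table, the share starting with A was 2.09% (2.08 to 2.10) of control and 1.31% (1.30 to 1.32) of chilled reads, still lower in the chilled library. Intervals cover counting error only.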
